A study of Homo sapiens with 24 samples.

Results

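The response to loss of NDUFS6 was compared between SK-N-BE(2) and SH-SY5Y, established lines of human neuroblastoma, a childhood tumour of the sympathetic nervous system. MYCN is amplified in SK-N-BE(2) but not in SH-SY5Y. In each line, cells had been infected with lentivirus carrying a short hairpin RNA against NDUFS6 or the matching empty vector, and infected cells had been selected with puromycin for about a week. All were grown in minimum essential medium with serum, pyruvate and non-essential amino acids. The 4 groups were SK-N-BE(2) knockdown, SK-N-BE(2) empty vector control, SH-SY5Y knockdown and SH-SY5Y empty vector control, with 3 libraries each. These 12 libraries were chosen by their labels from the 24 of the study, whose other libraries were cells that overexpressed NDUFS6 and the empty vector controls of that construct. The quantity of interest is the difference of differences on the log2(FPKM + 1) scale, the change with knockdown in SK-N-BE(2) minus the change in SH-SY5Y. A positive difference thus means a stronger rise or a weaker fall in SK-N-BE(2). Where a pair of changes is given, both are log2 changes and SK-N-BE(2) comes first. Replicates are termed biological in the labels, but separate infections are not mentioned, so a p-value reflects only how far these 3 libraries lay apart, which may be technical. The labels do not state whether the same hairpin served in both lines, and each line had 1 knockdown group in this comparison.

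Complex I, the NADH dehydrogenase of the inner mitochondrial membrane, passes electrons from NADH to ubiquinone and pumps protons. NDUFS6 is an accessory subunit of its matrix arm that takes part in the last steps of its assembly. Cells that lose respiratory function commonly switch on the integrated stress response, in which phosphorylation of eIF2alpha favours translation of the transcription factor ATF4. Misfolded proteins in the endoplasmic reticulum (ER) feed into the same branch through the kinase PERK and into separate branches through IRE1 with XBP1 and through ATF6. Neuroblastoma cells can also shift between an adrenergic state, held by factors such as ISL1 and HAND2, and a mesenchymal state rich in matrix genes.

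The targeted gene NDUFS6 (chromosome 5, 1801400 to 1816605, hg38) was lower under knockdown in both lines and fell further in SK-N-BE(2). The level was 9.29, 12.2 and 11.9 FPKM (fragments normalised to transcript length and library size) in the SK-N-BE(2) controls and 1.09, 1.61 and 1.3 in the knockdown libraries. In SH-SY5Y the controls held 11.2, 11.1 and 12.1 FPKM and the knockdown libraries 3.11, 3.98 and 4.98. The knockdown libraries did not overlap with their controls in either line, and the highest SK-N-BE(2) knockdown library lay below the lowest of SH-SY5Y. The means were 8.36-fold lower (1.33 ± 0.261 against 11.2 ± 1.63, SD, n = 3) and 2.85-fold lower (4.02 ± 0.939 against 11.5 ± 0.566). The log2(FPKM + 1) scale understates changes of low values. On it the difference between the lines was -1.05 (SE 0.19, limma adjusted p = 0.00052), with a 95% interval of -1.47 to -0.64. Every difference between the lines below was thus measured at unequal depths of knockdown, and the part of that inequality in them was not tested. In bulk RNA, fewer cells of a type and less RNA per cell cannot be told apart.

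The libraries of a group lay close together, and log2 values of 2 replicates differed with an SD of 0.1832 to 0.238. FPKM summed to 249788 to 259629 in the SK-N-BE(2) knockdown libraries and 270842 to 272957 in their controls, and to 272286 to 276091 and 255596 to 257575 in SH-SY5Y. Transcripts of mitochondrial DNA took 27.8% ± 0.399 (SD, n = 3) of FPKM in the SK-N-BE(2) knockdown and 33.8% ± 0.223 in its control, against 37.0% ± 0.967 and 31.1% ± 0.305 in SH-SY5Y. Their share thus moved in opposite ways in the 2 lines, and FPKM of all other genes share the same total. The neuroblastoma markers HAND2, GATA3 and CHGA were detected in all 12 libraries. HAND2 ranged from 67.1 to 90.04 FPKM in the SK-N-BE(2) knockdown and from 204 to 213 in its control, and from 270.0 to 278 and 286 to 294 in SH-SY5Y. CHGA ranged from 89.45 to 117.9 FPKM in the SK-N-BE(2) knockdown and from 139.8 to 148.6 in its control. In SH-SY5Y CHGA was far lower in the knockdown, at 10.46 to 13.44 against 63.07 to 67.42. GATA3 ranged from 42.54 to 53.76 and 88.17 to 92.55 in SK-N-BE(2), and from 71.32 to 73.77 and 64.02 to 67.07 in SH-SY5Y. The immune markers PTPRC, CD3E, CD14 and LYZ and the endothelial markers PECAM1, VWF, CDH5 and KDR lay under 1 FPKM in all 12 libraries, with LYZ at 0, as did 3 of 4 epithelial markers. The fibroblast markers PDGFRA, PDGFRB, FAP and THY1 summed to 30.3 to 33.6 FPKM in the SK-N-BE(2) knockdown and 34.4 to 35.2 in its control, and to 51.4 to 53.2 and 35.5 to 37.0 in SH-SY5Y. The Schwann cell marker SOX10 lay at or below 0.0641 FPKM in all libraries, and S100B at or below 1.33.

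Against the knockdown vector controls, knockdown changed a like number of genes in both lines, and most of these changes were not the same. A gene was called at an adjusted p under 0.05 in limma, and 15204 genes at 1 FPKM or more in at least 3 of the 12 libraries were tested, leaving out NDUFS6. In SK-N-BE(2) 8942 genes were called (58.8% of those tested) and in SH-SY5Y 8900 (58.5%). The difference between the lines was called for 8891 (58.5%), of which 4659 were higher and 4232 lower in SK-N-BE(2) relative to SH-SY5Y. Because a majority of all genes was called, a call alone says little of a gene, and sizes are given throughout. The difference reached 2-fold for 1755 genes (11.5%), 1120 higher (7.37%) and 635 lower (4.18%). Higher differences were 52.4% of those called, and 69.2% when each library was scaled to a fixed sum, which moved the median difference of all genes to 0.17 from 0.011. Against the empty vector controls of the overexpression construct the lines were less alike, with 7315 genes called in SK-N-BE(2) and 8983 in SH-SY5Y.

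Of all tested genes, 28.8% rose and 30% fell in SK-N-BE(2), and 27.7% rose and 30.9% fell in SH-SY5Y. Of the 5639 genes called in both lines, 3361 (59.6%) moved the same way and 2278 moved in opposite ways. The shared genes (22.1% of those tested) were 1600 rises and 1761 falls, and made up 37.6% of the calls in SK-N-BE(2) and 37.8% of those in SH-SY5Y. For 2313 of them (68.8%) the 95% interval of the difference lay within 1.5-fold either way, which is termed like size here. Over all tested genes the median absolute log2 change was only 0.25 in SK-N-BE(2) and 0.26 in SH-SY5Y. Small changes of unequal size can thus meet this rule, as can genes with a called difference, so the count does not show equal answers. Opposite answers (15% of tested genes) were 1201 rises (7.9%) and 1077 falls (7.08%) in SK-N-BE(2). A further 2458 genes (16.2%) were called in SK-N-BE(2) but not in SH-SY5Y with the difference itself called, 1208 higher (7.95%) and 1250 lower (8.22%). The other way round there were 2475 (16.3%), 1159 higher (7.62%) and 1316 lower (8.66%) in SH-SY5Y. For 1631 genes called in 1 line the difference was not called, so those cannot be assigned to either line. Large changes were seldom shared: 727 genes (4.78%) changed at least 2-fold in SK-N-BE(2), 511 of them higher (3.36%), and 1043 (6.86%) in SH-SY5Y, 413 higher (2.72%). Of these, 84 moved the same way in both, 11.6% and 8.05% of those numbers. Another 36 changed at least 2-fold in opposite ways. Across all tested genes the log2 changes in the 2 lines had a Pearson correlation of 0.118, and 0.179 over the 7240 genes with a mean of at least 5 FPKM. These correlations describe genes within the same 12 libraries, and genes are not independent replicates.

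**Figure D1:**
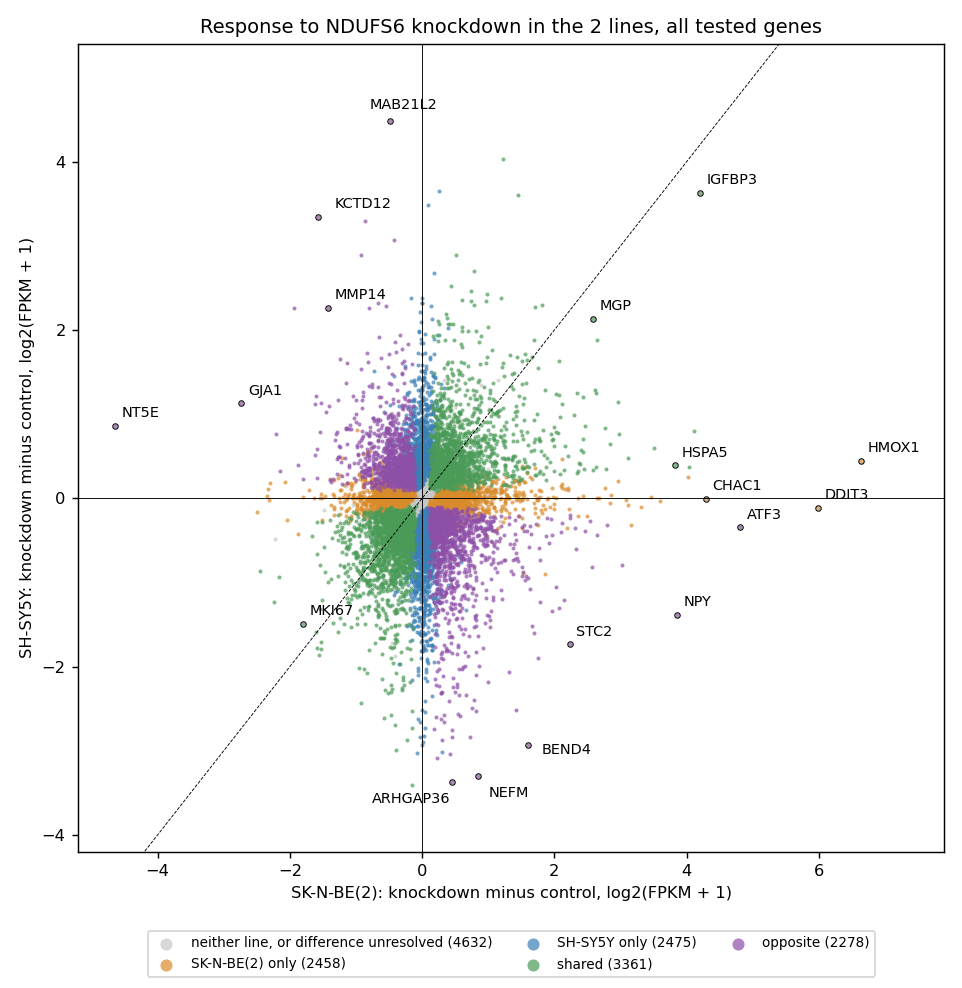
Log2 change with NDUFS6 knockdown in SK-N-BE(2) (x axis) against SH-SY5Y (y axis), both on the log2(FPKM + 1) scale, 1 point per tested gene, coloured by class; the dashed line marks equal change. Shared answers (3361) fill the lower left and upper right and opposite answers (2278) the other corners, and the largest changes lie along the axes rather than the dashed line.

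**Figure D2:**
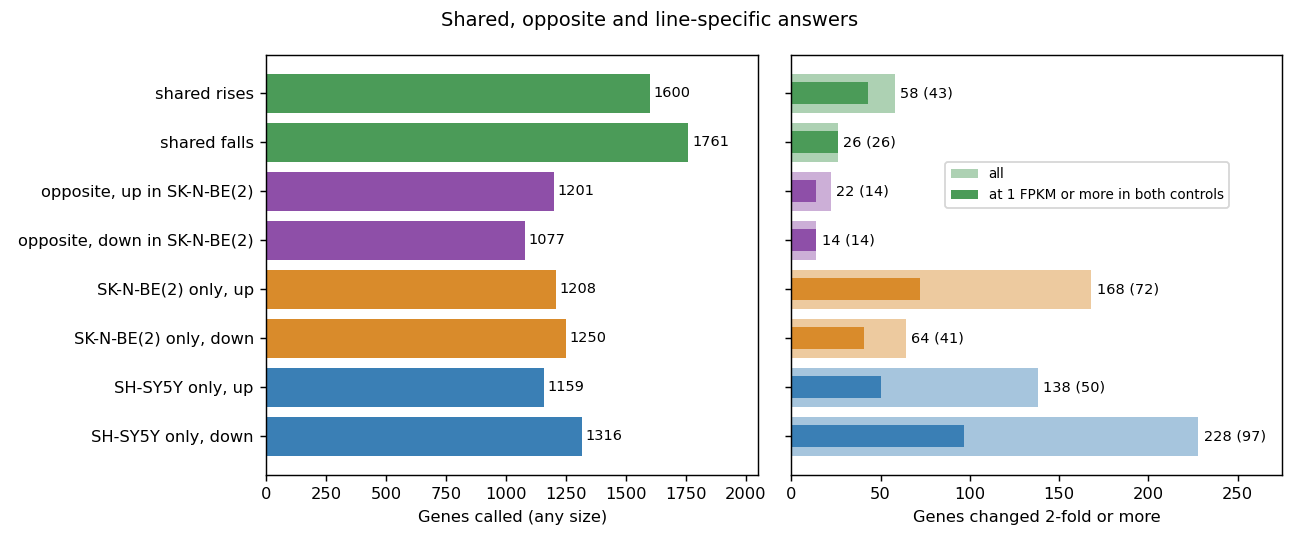
Number of genes in each class by direction, for all calls (left) and for changes of at least 2-fold (right; in the line named, or in both lines for shared and opposite). In the right panel, dark bars and the numbers in brackets count genes at 1 FPKM or more in the mean of both controls; SH-SY5Y falls are the longest bar (228, of which 97).

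The 84 genes that changed at least 2-fold the same way comprised 58 rises and 26 falls. IGFBP3, a secreted binding protein of insulin-like growth factors, had the largest shared rise, ranked by the smaller of its changes. IGFBP3 stood at 1.02, 1.02 and 1.09 FPKM in the SK-N-BE(2) controls and at 36.1, 37.6 and 36.6 in the knockdown libraries, and in SH-SY5Y at 9.3, 8.25 and 9.05 (controls) and 119, 120.0 and 124 (knockdown). The knockdown libraries were far above the controls in each line, and the changes were 4.21 and 3.63. MGP, a matrix protein that binds bone morphogenetic proteins, changed by 2.58 and 2.14. The inhibitors of differentiation ID1 and ID2, which block basic helix-loop-helix factors, rose together. ID2 stood at 10.4, 13.9 and 13.5 FPKM in the SK-N-BE(2) controls and at 37.9, 48.1 and 39.4 in the knockdown libraries, and in SH-SY5Y at 27.9, 28.7 and 30.8 (controls) and 94.5, 92.4 and 99.7 (knockdown). The groups did not overlap in either line, and the changes of ID2 were nearly equal, 1.66 and 1.68, with a difference of -0.023 (SE 0.147, limma adjusted p = 0.905) and a 95% interval of -0.35 to 0.3. ID1 changed by 2.65 and 1.88. The secreted glycoprotein RELN changed by 1.81 and 2.3, the interferon-induced membrane protein IFITM3 by 1.69 and 1.88, the mesenchymal transcription factor SNAI2 by 2.07 and 1.64 and the chemokine CXCL8 by 1.7 and 2.28. The matricellular protein SPARC changed by 1.41 and 1.1 and the transcription factor KLF6 by 1.07 and 1.18.

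Against the other empty vector control of each line, the one made for the overexpression construct, 53 of the 58 rises were still called in both lines, 29 of them at least 2-fold in both. Of the 26 falls, 25 were still called in both lines, 5 of them at least 2-fold in both. ID2 then changed by 1.35 and 1.39, ID1 by 1.96 and 2.24, and SNAI2 by 1.72 and 1.98. Sizes were less stable for other genes: IGFBP3 changed by 0.82 in SK-N-BE(2) and 5.02 in SH-SY5Y, MGP by 0.48 and 2.68, and SPARC by 1.02 and 2.42. The difference between the lines then turned from 0.58 to -4.2 for IGFBP3, from 0.44 to -2.2 for MGP and from 0.31 to -1.4 for SPARC. For ID1 it went from 0.77 to -0.28 and was no longer called, and for SNAI2 from 0.44 to -0.27. It widened from -0.5 to -2.17 for RELN, from -0.18 to -1.88 for IFITM3 and from -0.58 to -1.65 for CXCL8, and for KLF6 it went from -0.1 to -0.38 and was called. The CXCL8 difference turned positive, 0.78, with a pseudocount of 0.1. The MGP difference was not called with that pseudocount or with no filter on low values, nor that of RELN with each library scaled to a fixed sum.

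Genes of G2 and mitosis fell in both lines. Of 34 G2 and mitosis genes, 33 fell in SK-N-BE(2) and all 34 in SH-SY5Y, with median changes of -0.77 and -1.13, against medians of -0.011 and -0.0090 over all tested genes. The called difference was higher in SK-N-BE(2), a weaker fall there, for 21 members and lower for 2. By the 1.5-fold interval 14 were of like size, a group that overlaps with those called. CDK1, the kinase that drives entry into mitosis, fell by like amounts. CDK1 stood at 59.5, 57.9 and 57.9 FPKM in the SK-N-BE(2) controls and at 27.1, 30.2 and 28.7 in the knockdown libraries, and in SH-SY5Y at 45.9, 46.7 and 45.6 (controls) and 22.8, 20.7 and 22.8 (knockdown). All knockdown libraries lay below all controls of their line, and the changes were -1.0 and -1.03, a difference of 0.025 (SE 0.0667, limma adjusted p = 0.774) with a 95% interval of -0.12 to 0.17. The spindle motor KIF11 changed by -0.89 and -0.97. The proliferation antigen MKI67 changed by -1.8 and -1.49, the spindle protein ASPM by -1.34 and -1.49, and the centromeric histone CENPA, which shares exon sequence with another gene on its strand and is uncertain, by -1.6 and -1.59. Members with a clearly smaller fall in SK-N-BE(2) were the centrosome kinase NEK2 (-0.62 and -1.66), the spindle proteins TPX2 (-0.32 and -1.0) and HMMR (-0.42 and -1.51), and the topoisomerase TOP2A (-1.08 and -1.53). The TPX2 difference was 0.68 (SE 0.0552, limma adjusted p = 6.47e-07).

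The sizes of these falls depended on the control in SK-N-BE(2). Against the other empty vector controls the list medians were -0.30 in SK-N-BE(2) and -1.04 in SH-SY5Y. CDK1 then changed by -0.38 and -0.91 and KIF11 by -0.39 and -0.95, and the differences of 0.52 and 0.56 were called (limma adjusted p = 5.62e-05 and 3.25e-05). ASPM (-0.71 and -1.34) and CENPA (-0.81 and -1.33) were still lower in both lines, now with called differences of 0.64 and 0.52, and MKI67 had an uncalled difference of 0.35 in place of -0.31. NEK2 (-0.016), TPX2 (-0.02) and HMMR (0.097) were not called in SK-N-BE(2), and TOP2A changed by -0.21 and -1.35. Among the 8 leading shared falls were 4 near-identical copies of FAM72, whose reads cannot be told apart with certainty, such as FAM72D (-1.57 and -1.86). NUP62CL, named after the nucleoporin NUP62, changed by -1.55 and -1.32 but by -0.0074 and -1.22 against the other controls. Single libraries decided some of the uncalled differences: that of MKI67 was called without SK-N-BE(2) knockdown replicate 3 (-0.44) or SH-SY5Y knockdown replicate 3 (-0.39), and that of ASPM without SK-N-BE(2) knockdown replicate 2 (0.28). That of NUP62CL was called without SK-N-BE(2) control replicate 3 (-0.31) or SH-SY5Y knockdown replicate 3 (-0.29). With each library scaled to a fixed sum the differences of CDK1 and KIF11 were called, at 0.22 and 0.27.

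The CDK1 promoter is printed because mitosis genes are known for a cell cycle element (the bases TTTGAA) near their start, which the DREAM repressor complex and its activating counterpart bind. The bases before the gene's start are given on its own strand (RefSeq, GRCh38.p14, chr10:60778081-60778330, plus strand), with TTTGAA in capitals.
CDK1: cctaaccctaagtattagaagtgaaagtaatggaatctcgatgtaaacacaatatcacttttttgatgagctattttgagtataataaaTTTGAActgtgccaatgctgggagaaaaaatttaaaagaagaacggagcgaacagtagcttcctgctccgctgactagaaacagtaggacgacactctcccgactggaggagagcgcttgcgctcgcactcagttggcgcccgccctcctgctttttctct
This TTTGAA match lay 161 bases before the start, and whether it is the cell cycle element of CDK1 was not tested. On either strand TTTGAA occurred in 16 of the 29 G2 and mitosis genes with a promoter in RefSeq (55.2%), in 805 of the 9905 tested genes with such a promoter (8.13%) and in 3704 of all 27305 promoters (13.6%), each 250 bases long. The 16 genes changed by a median of -0.87 in SK-N-BE(2) and -1.21 in SH-SY5Y, and the 13 without it by -0.67 and -1.17. A match describes these letters and is not a bound site.

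Genes of DNA replication mostly fell in SH-SY5Y and moved both ways in SK-N-BE(2). Of 32 G1/S and DNA replication genes, 16 fell and 8 rose in SK-N-BE(2), while 26 fell and 1 rose in SH-SY5Y, with medians of -0.19 and -0.47 and a median difference of 0.28. Under the other controls these were -0.18, -0.83 and 0.74, and with each library scaled to a fixed sum -0.092, -0.57 and 0.44. Of the falls, 15 were shared, and 6 members rose in SK-N-BE(2) while falling in SH-SY5Y. CDC6, which loads the replicative helicase, showed the opposite answer. CDC6 stood at 10.1, 11.3 and 10.7 FPKM in the SK-N-BE(2) controls and at 26.7, 23.9 and 24.9 in the knockdown libraries, and in SH-SY5Y at 8.73, 9.23 and 9.88 (controls) and 6.26, 6.01 and 6.37 (knockdown). The difference was 1.67 (SE 0.0808, limma adjusted p = 8.55e-09). The helicase cofactor CDC45 changed by 0.059 and -0.8 with a difference of 0.86, and the ribonucleotide reductase subunit RRM1 by -0.32 and -0.66. CCND1, the G1 cyclin D1, was the member that rose in SH-SY5Y and fell in SK-N-BE(2), by -0.46 and 0.95, and against the other controls by -0.65 and 0.15, the latter not called.

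The endoplasmic reticulum stress response rose in both lines and far more in SK-N-BE(2). Of 33 tested genes, 30 rose in SK-N-BE(2) and 23 in SH-SY5Y, with medians of 1.54 and 0.33, and 21 rises were shared. The difference was higher in SK-N-BE(2) for 27 members and lower for 3. HSPA5, the main chaperone of the compartment, changed most among the chaperones. HSPA5 stood at 64.6, 63.3 and 64.9 FPKM in the SK-N-BE(2) controls and at 1024, 901 and 858 in the knockdown libraries, and in SH-SY5Y at 70.8, 69 and 69.3 (controls) and 89.2, 89.7 and 96.1 (knockdown). The SK-N-BE(2) knockdown libraries stood apart from all 9 others, while the smaller SH-SY5Y rise still left no overlap between its groups. The changes were 3.83 and 0.39 and the difference 3.44 (SE 0.0801, limma adjusted p = 3.3e-11). All 15 ER chaperones and folding enzymes had a positive difference that was called, with a median of 2.05. The degradation adaptor HERPUD1 changed by 4.04 and 0.37, the co-chaperone DNAJB9 by 3.12 and 0.48 and the chaperone CALR by 2.0 and 0.62. XBP1, the transcription factor of the IRE1 branch, changed by 2.45 and 0.35. The sensors and transcription factors differed less, with 4 of 8 higher, 3 lower and a median difference of 0.12. Among them EIF2AK3, which encodes PERK, changed by 1.41 and 0.87 with a difference of 0.54 (SE 0.123, limma adjusted p = 0.00244). The list medians against the other controls were 1.5 and 0.32, and HSPA5 then changed by 3.37 in SK-N-BE(2) and 0.027 in SH-SY5Y, the latter not called.

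The HSPA5 promoter is printed because it holds the ER stress element, the bases CCAAT and CCACG 9 bases apart, known as a site of ATF6 with the factor NF-Y. The bases before the start are given on the gene's strand (RefSeq, GRCh38.p14, chr9:125241344-125241593, minus strand), with CCAAT and CCACG in capitals.
HSPA5: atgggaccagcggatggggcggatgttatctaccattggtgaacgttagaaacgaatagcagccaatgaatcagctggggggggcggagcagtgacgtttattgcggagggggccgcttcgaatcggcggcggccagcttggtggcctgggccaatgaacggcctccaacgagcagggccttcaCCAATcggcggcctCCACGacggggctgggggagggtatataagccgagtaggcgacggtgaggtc
This exact element, 66 bases before the start here, was found in 22 of 27305 promoters on either strand (0.0806%), in 14 of 9905 tested genes (0.141%) and in 6 of the 30 ER stress genes with a promoter in RefSeq (20.0%). The 6 were CALR, CANX, CRELD2, HSP90B1, HSPA5 and XBP1. Their differences between the lines ran from 0.85 to 3.44 with a median of 2.07, and the median of the 24 ER stress genes without it was 1.10. The element was in 0 of the 42 ATF4 and CHOP genes, 29 mitosis genes or 22 neuronal genes with a promoter.

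The ATF4 and CHOP branch rose broadly in SK-N-BE(2) and had no common direction in SH-SY5Y. Of 50 tested genes, 47 rose in SK-N-BE(2) with a median of 1.56, while in SH-SY5Y 13 rose and 19 fell with a median of -0.10. Of all tested genes 27.7% rose and 30.9% fell in SH-SY5Y, and the SH-SY5Y counts of this list lay not far from those shares. The medians were 1.33 and -0.011 with the other controls, and the median difference was 1.32 in place of 1.64. The difference was higher for 48 members and lower for 1, and 17 rose in SK-N-BE(2) while falling in SH-SY5Y. DDIT3, which encodes CHOP and shares exon sequence with another gene on its strand, so that its value is uncertain, had the second largest difference of all. DDIT3 stood at 3.26, 3.83 and 2.89 FPKM in the SK-N-BE(2) controls and at 274, 288 and 257 in the knockdown libraries, and in SH-SY5Y at 8.97, 8.23 and 6.54 (controls) and 5.32, 7.01 and 9.9 (knockdown). The SH-SY5Y groups overlapped. The difference was 6.1 (SE 0.241, limma adjusted p = 3.87e-09). CHAC1, a glutathione-degrading enzyme induced by this branch, stood at 0.573, 0.458 and 0.42 FPKM in the SK-N-BE(2) controls and 26.7, 27.8 and 29.6 in the knockdown, and stayed at or below 0.941 FPKM in every SH-SY5Y library. It passed the filter of 1 FPKM only through the SK-N-BE(2) knockdown, where it was high, so its call is no separate support. ATF3, a stress-induced transcription factor, changed by 4.81, -0.34 and 5.16 (SK-N-BE(2), SH-SY5Y and the difference). ATF4 mRNA itself rose in both lines, by 1.37 and 0.5, with a difference of 0.87.

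The roles within the ATF4 and CHOP branch differed in SH-SY5Y. All 12 transfer RNA synthetase genes rose in SK-N-BE(2), with a median of 1.35, and in SH-SY5Y 2 rose and 3 fell. These SH-SY5Y counts did not exceed the shares of all tested genes there (27.7% higher and 30.9% lower). Of 12 amino acid synthesis genes, 10 rose in SK-N-BE(2) and 7 fell in SH-SY5Y, and all 12 had a called positive difference. The large neutral amino acid transporter SLC7A5 changed by 2.32 and -0.35. SLC38A2, a glutamine importer, was the 1 member with a called difference in favour of SH-SY5Y, and rose in both lines, by 1.03 and 1.28. The secreted stanniocalcin STC2 changed in opposite ways. STC2 stood at 4.43, 4.16 and 4 FPKM in the SK-N-BE(2) controls and at 23.4, 23.5 and 23.1 in the knockdown libraries, and in SH-SY5Y at 4.45, 4.88 and 4.43 (controls) and 0.595, 0.721 and 0.723 (knockdown). Neither knockdown group overlapped with its control, and the difference was 3.96 (SE 0.0756, limma adjusted p = 5.92e-12). DDIT4, an inhibitor of mTORC1, changed by 2.08 and -1.3, and PPP1R15A, the phosphatase subunit that reverses eIF2alpha phosphorylation, rose in both lines by 2.97 and 1.14. Against the other controls, the SH-SY5Y change of DDIT4 turned from -1.3 to 0.96 and that of DDIT3 from -0.11 to 0.97, both then called, so the differences fell to 1.19 and 4.14. The SH-SY5Y falls of ATF3 (-0.12) and SLC7A5 (-0.12) were then not called, and the SLC38A2 difference widened from -0.25 to -0.91, though it was not called with each library scaled to a fixed sum (-0.054).

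HMOX1, the heme oxygenase, had the largest difference of all genes tested (chromosome 22, 35380361 to 35394214). HMOX1 stood at 0.939, 0.791 and 1.3 FPKM in the SK-N-BE(2) controls and at 280.0, 162 and 169 in the knockdown libraries, and in SH-SY5Y at 0.992, 1 and 0.731 (controls) and 1.92, 1.15 and 1.79 (knockdown). The SK-N-BE(2) knockdown rose 202-fold in mean, while the SH-SY5Y change of 0.45 was not called, and the difference was 6.18 (SE 0.271, limma adjusted p = 8.35e-09). With the other controls HMOX1 changed by 0.73 in SH-SY5Y, which was called, and the difference was 4.68. Of 22 NRF2 and heme or antioxidant genes, 18 rose in SK-N-BE(2) and 10 in SH-SY5Y, with medians of 0.78 and 0.13, and 15 differences were higher and 3 lower in SK-N-BE(2). GCLM, which supports glutathione synthesis, changed by 2.44 and 0.03, and the thioredoxin reductase TXNRD1 by 1.49 and -0.036. The TXNRD1 difference was 1.52, and 0.97 against the other controls, where TXNRD1 also rose in SH-SY5Y (0.28). The autophagy receptor SQSTM1 rose in both, by 2.11 and 1.12, and by 1.49 and 1.89 against the other controls, which turned its difference from 0.99 to -0.4. The median difference of the list was 0.73, and 0.18 against the other controls, where the SH-SY5Y median was 0.34.

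Immediate early and heat shock genes mostly rose in SK-N-BE(2). Of 28 immediate early genes, 27 rose in SK-N-BE(2), with a median of 1.21, and in SH-SY5Y 11 rose and 6 fell, with a median of 0.057 that turned to -0.0032 when each library was scaled to a fixed sum and was 0.26 with the other controls. All 7 FOS and JUN family genes had a higher answer in SK-N-BE(2). FOS stood at 0.633, 0.604 and 0.873 FPKM in the SK-N-BE(2) controls and at 15.1, 16.4 and 16.1 in the knockdown libraries, and in SH-SY5Y at 1.46, 1.62 and 1.34 (controls) and 1.39, 0.929 and 1.66 (knockdown). The SH-SY5Y groups overlapped, its change of -0.1 was not called (it was 0.52 and called against the other controls), and the difference was 3.41 (SE 0.149, limma adjusted p = 3.51e-09). JUN changed by 2.32 and -0.6 and FOSL1 by 4.02 and 0.25, where the latter rose in SH-SY5Y by 1.25 against the other controls. The phosphatase DUSP10 rose in both lines by 2.34 and 1.26, but its difference turned from 1.08 to -0.12 against the other controls and was not called. Of 15 cytosolic heat shock genes, 14 rose in SK-N-BE(2), while 4 rose and 8 fell in SH-SY5Y, with medians of 0.65 and -0.23. The inducible HSP70 genes HSPA1A and HSPA1B, near-identical copies whose reads may be shared, changed by 2.64 and -0.44 and by 2.46 and -0.39. The co-chaperone DNAJB1 changed by 1.73 and -0.016 and the HSP90 gene HSP90AA1 by 0.46 and -0.41. Mitochondrial chaperones and proteases moved little, with medians of 0.11 and -0.044 over 15 genes.

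**Figure D3:**
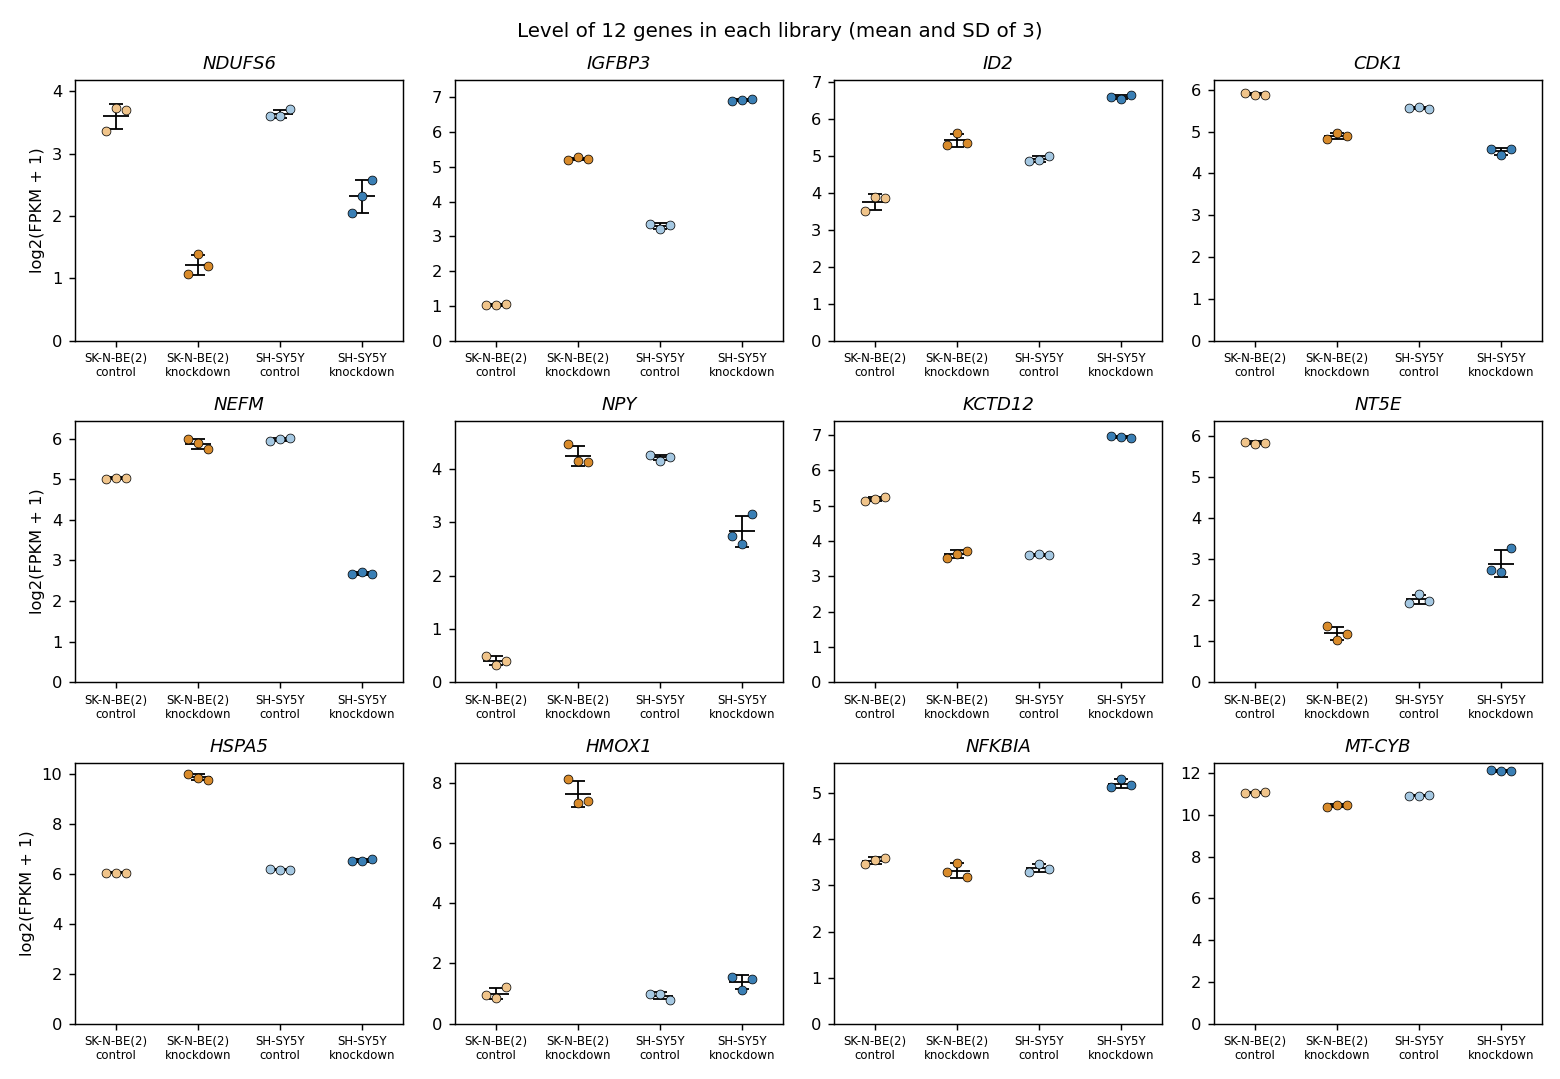
Level of 12 genes in each of the 12 libraries on the log2(FPKM + 1) scale (y axis, starting at 0 with its own upper limit in each panel); points are libraries, the horizontal mark their mean and the bars the SD of 3. NDUFS6, IGFBP3, ID2 and CDK1 move the same way in both lines, NEFM, NPY, KCTD12, NT5E and MT-CYB in opposite ways, HSPA5 and HMOX1 mostly in SK-N-BE(2) and NFKBIA mostly in SH-SY5Y.

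Neuronal genes mostly fell in SH-SY5Y and rose more often than they fell in SK-N-BE(2). Of 30 genes of neuronal structure and release, 23 fell and 3 rose in SH-SY5Y, with a median of -1.40, whereas 18 rose and 5 fell in SK-N-BE(2), with a median of 0.34. The difference was higher in SK-N-BE(2) for 23 members and lower for 2, and 14 members moved in opposite ways. NEFM, the medium neurofilament chain, was among them. NEFM stood at 31.1, 31.9 and 31.7 FPKM in the SK-N-BE(2) controls and at 62.3, 58.5 and 52.8 in the knockdown libraries, and in SH-SY5Y at 60.5, 62.3 and 63.4 (controls) and 5.31, 5.55 and 5.32 (knockdown). The SH-SY5Y knockdown libraries lay far below every other library, and the difference was 4.15 (SE 0.0734, limma adjusted p = 5.92e-12). NEFL and NEFH, the other neurofilament chains, changed by 0.57 and -2.59 and by 0.95 and -1.49. The RNA-binding protein ELAVL3, uncertain because of shared exon sequence, changed by 0.43 and -3.04, and its relative ELAVL4 by 0.69 and 0.4. STMN2, a microtubule regulator of growth cones, fell in both lines, with changes of -1.09 and -0.54, and STMN4 changed by 1.75 and -1.9. DPYSL3, which acts in axon guidance, rose in both, by 0.87 and 1.05.

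NPY, a peptide transmitter of sympathetic neurons, had the largest positive difference among genes that moved in opposite ways (chromosome 7, 24284163 to 24291865). NPY stood at 0.401, 0.245 and 0.325 FPKM in the SK-N-BE(2) controls and at 21.2, 16.7 and 16.6 in the knockdown libraries, and in SH-SY5Y at 18.2, 16.9 and 17.8 (controls) and 5.73, 5.03 and 7.92 (knockdown). Knockdown thus brought SK-N-BE(2) to about the level of the SH-SY5Y control, and the difference was 5.24 (SE 0.181, limma adjusted p = 7.62e-10). The secretory granule protein VGF changed by 1.66 and -1.52 and the granin CHGB by 0.67 and -2.34. BEND4, a DNA-binding protein, changed by 1.61, -2.94 and 4.54, EEF1A2, the neuronal and muscle form of translation elongation factor 1A, by 1.42, -2.52 and 3.94, and ARHGAP36, a regulator of protein kinase A, by -3.38 in SH-SY5Y, while it was listed at 0 in all SK-N-BE(2) controls and stayed at or below 0.452 FPKM in that knockdown. The transcriptional repressor BHLHE40 changed by 1.69 and -1.61, but by 0.68 in SH-SY5Y against the other controls, so its difference fell from 3.3 to 0.87.

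Set against the other controls, the neuronal list had medians of -1.48 in SH-SY5Y and 0.045 in SK-N-BE(2), and a median difference of 1.80 in place of 1.81. VGF then changed by 2.21 and -0.68, NEFL by 0.72 and -2.98. NEFM (-0.051) and CHGB (-0.056) were not called in SK-N-BE(2), and ELAVL3 fell there (-0.42), while their SH-SY5Y changes were -3.55, -3.53 and -3.27. ELAVL4 was called in neither line, the STMN2 difference turned from -0.54 to 0.22, not called, and the DPYSL3 difference widened from -0.18 to -1.24 but turned to 0.012, not called, with each library scaled to a fixed sum. STMN4 (1.86 and -2.33) and NPY (2.88 and -1.2) moved in opposite ways with either control.

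Adrenergic transcription factors mostly fell in SK-N-BE(2), and the adrenergic products fell in SH-SY5Y. Of 12 adrenergic transcription factors, 9 fell and 1 rose in SK-N-BE(2), with a median of -0.81, while 4 fell and 3 rose in SH-SY5Y, with a median of 0.0098. The SH-SY5Y counts were near the shares of all tested genes there (30.9% lower and 27.7% higher). Of 9 catecholamine and other markers, 5 rose and 3 fell in SK-N-BE(2), all 9 fell in SH-SY5Y, and all 9 differences were positive, with a median of 1.80. ISL1, a homeobox factor of sympathetic neurons, showed the split of the factors. ISL1 stood at 44.3, 45.5 and 43.4 FPKM in the SK-N-BE(2) controls and at 16.1, 18.3 and 17.8 in the knockdown libraries, and in SH-SY5Y at 33.4, 36.4 and 36.5 (controls) and 61.4, 61.8 and 58.6 (knockdown). All groups stood apart from their controls, and the difference was -2.06 (SE 0.0736, limma adjusted p = 7.29e-10). The PHOX2A factor changed by -0.55 and -0.62, a shared fall, and the T-box factor TBX2 by 0.34 and 1.88. Of the products, the receptor tyrosine kinase RET changed by 1.53 and -0.87 and DBH, which makes noradrenaline, by -0.92 and -2.44. When set against the other controls, ISL1 fell in SK-N-BE(2) and was not called in SH-SY5Y (-1.19 and -0.0016), with a difference of -1.19. PHOX2A then had a called difference of -0.52, and one of 0.18 without SK-N-BE(2) knockdown replicate 1 and 0.27 with each library scaled to a fixed sum. Against the other controls the differences of RET, DBH and TBX2 went to 1.07, 0.57 and -2.7. Over all 21 adrenergic genes the median difference was 0.065, and -0.075 against the other controls.

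The largest differences in the other direction among opposite answers belonged to single genes that were down in SK-N-BE(2) and up in SH-SY5Y. NT5E, the ecto-enzyme CD73 and a mesenchymal marker, had the most negative difference (chromosome 6, 85449584 to 85495791). NT5E stood at 56.9, 54.4 and 55.9 FPKM in the SK-N-BE(2) controls and at 1.56, 1.05 and 1.24 in the knockdown libraries, and in SH-SY5Y at 2.8, 3.43 and 2.92 (controls) and 5.57, 5.36 and 8.53 (knockdown). The SK-N-BE(2) controls stood above all other libraries, and the difference was -5.5 (SE 0.19, limma adjusted p = 7.75e-10). KCTD12, an auxiliary subunit of GABA-B receptors, was 2-fold changed in both lines. KCTD12 stood at 34.3, 35.5 and 37 FPKM in the SK-N-BE(2) controls and at 10.4, 11.5 and 12.2 in the knockdown libraries, and in SH-SY5Y at 11.1, 11.4 and 11 (controls) and 124, 124 and 121 (knockdown). Each group stood clear of its control, and the difference was -4.91 (SE 0.071, limma adjusted p = 1.45e-12). The gap junction protein GJA1 changed by -2.74 and 1.13, the membrane metalloprotease MMP14 by -1.43 and 2.26, the synaptic adhesion protein SLITRK6 by -1.94 and 2.27, the proteoglycan VCAN by -1.24 and 1.66 and the surface protein TRIL by -1.6 and 1.21. Each of these 7 moved in the same opposite directions against the other controls, where NT5E fell by 1.75 in SK-N-BE(2), with differences from -5.43 (KCTD12) to -2.72 (TRIL).

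Other large negative differences came mainly from SH-SY5Y, apart from those of MXRA8 and GPC3. MAB21L2, a developmental regulator, stood at 0.132, 0.0571 and 0.213 FPKM in its controls and 26.2, 25.5 and 21.5 in its knockdown, against a change of -0.49 in SK-N-BE(2). The Wnt modulator DKK2 changed by -0.93 and 2.9, the small proteoglycan DCN by -0.43 and 3.07 and the long non-coding RNA AC114284.1 by -0.86 and 3.3. MXRA8 and GPC3, a matrix receptor and a glypican, changed in opposite ways by -1.28 and 1.17 and by -1.16 and 1.37. They did not keep opposite directions against the other controls, where their SK-N-BE(2) changes were 0.11 (not called) and 0.39.

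As a list, 31 extracellular matrix and adhesion genes rose in both lines more often than they fell, 17 against 7 in SK-N-BE(2) and 25 against 3 in SH-SY5Y, with medians of 0.26 and 0.65. Of these rises 14 were shared. The difference was lower in SK-N-BE(2) for 17 genes and higher for 10, with a median of -0.25, and of -1.31 against the other controls, where the medians in the lines were 0.15 and 1.55. The basement membrane collagen COL4A1 changed by -1.45 and 1.02, and THBS1, a matricellular protein, by 3.12 and -0.074, the main exception in the list. With the other controls COL4A1 was not called in SK-N-BE(2) (0.13) and THBS1 rose in SH-SY5Y (0.94), so that the difference of THBS1 was 1.72 in place of 3.19. The mesenchymal list of 19 genes had medians of 0.37 and 0.25 and a median difference of -0.17, which turned to 0.015 when each library was scaled to a fixed sum. Its medians with the other controls were 0.052 and 1.46, and the median difference was -0.45. VIM, the intermediate filament vimentin, rose in both, by 0.37 and 2.2, and YAP1, a coactivator of TEAD factors, changed by -0.92 and 1.54. With the other controls neither was called in SK-N-BE(2) (-0.01 and -0.0066), and in SH-SY5Y they changed by 3.57 and 2.61. All 6 tested IGF binding proteins rose in SK-N-BE(2), and 3 rose and 1 fell in SH-SY5Y. IGFBP5 changed by 0.47 and 1.88, and by -0.51 and 3.1 against the other controls. Of 7 tested fibroblast markers, 6 rose in SH-SY5Y, and 3 rose and 2 fell in SK-N-BE(2). Among them PDGFRB changed by -0.15 and 0.78, and the part of such cells or genes in these matrix changes was not tested.

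Inflammatory genes rose mainly in SH-SY5Y. All 18 tested NF-kappaB targets rose there, with a median of 1.16, while 6 rose and 4 fell in SK-N-BE(2), with a median of 0.13. The SK-N-BE(2) counts lay not far from the shares of all tested genes (28.8% higher and 30% lower). In SH-SY5Y 27.7% of all tested genes rose. The difference was lower in SK-N-BE(2) for 15 members and higher for 0, against 27.8% and 30.6% of all tested genes. NFKBIA, the inhibitor that NF-kappaB induces as feedback, showed the pattern. NFKBIA stood at 10.0, 10.7 and 11.2 FPKM in the SK-N-BE(2) controls and at 8.75, 10.3 and 8.14 in the knockdown libraries, and in SH-SY5Y at 8.82, 10.0 and 9.29 (controls) and 34.1, 39 and 35.4 (knockdown). The SK-N-BE(2) groups overlapped, whereas the SH-SY5Y groups lay far apart, and the difference was -2.05 (SE 0.111, limma adjusted p = 2.09e-08). The chemokine CCL2 changed by -0.39 and 1.74, the adaptor TRAF1 by -0.34 and 1.94 and the deubiquitinase TNFAIP3 by 0.33 and 1.55. Of 14 tested type I interferon response genes, 10 rose in SH-SY5Y and 6 in SK-N-BE(2), with medians of 0.54 and 0.21, and the difference was lower in SK-N-BE(2) for 7 and higher for 0. IFIT3 stood at 0.254, 0.245 and 0.345 FPKM in the SH-SY5Y controls and 1.73, 1.77 and 1.76 in the knockdown, and at or below 0.213 FPKM in every SK-N-BE(2) library. It passed the filter of 1 FPKM only through the SH-SY5Y knockdown, where it was high, so its call is no separate support. IFI44 changed by 0.38 and 1.6, a difference that was not called with a pseudocount of 0.1. The medians of both lists in SH-SY5Y were 1.61 and 0.82 against the other controls, and the SK-N-BE(2) falls of CCL2 and TRAF1 became 0.44 and 0.19, the first a called rise and the second not called. CD68, a lysosomal marker of macrophages that shares exon sequence with another gene on its strand, rose in SH-SY5Y by 1.94, while PTPRC, CD3E and CD14 stayed under 1 FPKM and LYZ at 0 throughout.

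Respiratory chain subunits encoded by mitochondrial DNA moved in opposite ways in the lines. Of 13 subunits encoded by mitochondrial DNA, 12 fell in SK-N-BE(2) and all 13 rose in SH-SY5Y, with medians of -0.49 and 0.55, and all 13 differences were negative, with a median of -1.09. MT-CYB, cytochrome b of complex III, changed most. MT-CYB stood at 2142, 2132 and 2187 FPKM in the SK-N-BE(2) controls and at 1347, 1440.0 and 1422 in the knockdown libraries, and in SH-SY5Y at 1932, 1916 and 1979.7 (controls) and 4636, 4366 and 4418 (knockdown). The difference was -1.82 (SE 0.0504, limma adjusted p = 1.06e-10). The complex I subunit MT-ND2 changed by -0.35 and 0.76. The list medians with the other controls were -0.086 and 0.48, the median difference -0.64, and MT-CYB and MT-ND2 were not called in SK-N-BE(2) (0.028 and -0.037). Of the 36 other nuclear complex I subunits, 20 fell and 1 rose in SK-N-BE(2), and 12 fell and 6 rose in SH-SY5Y, with medians of -0.19 and -0.069. Their share of falls in SH-SY5Y was near that of all tested genes (30.9%). The medians were -0.13 and -0.19 with the other controls, and with each library scaled to a fixed sum -0.090 and -0.16. Their median difference was -0.057, and 0.11 when each library was scaled to a fixed sum. The accessory subunit NDUFS5 fell in SK-N-BE(2) and was not called in SH-SY5Y with these controls (-0.23 and called with the others). It stood at 111, 101 and 103 FPKM in those controls and 44.8, 58.4 and 54.6 in the knockdown, and changed by -0.065 in SH-SY5Y, with a difference of -0.93 (SE 0.109, limma adjusted p = 1.61e-05). Of 16 complex I assembly factors, 5 rose and 5 fell in SK-N-BE(2), and 2 rose and 6 fell in SH-SY5Y. The SK-N-BE(2) shares were near those of all tested genes (28.8% higher and 30% lower). NDUFB4 (-0.36 and -0.49) and NDUFA2 (-0.48 and -0.43) were shared falls. Among 38 nuclear subunits of complexes II to V, 22 fell in SK-N-BE(2) and 19 in SH-SY5Y, 11 of them in both, with medians of -0.2 and -0.16 (-0.12 and -0.26 with the other controls), and UQCRC1 of complex III changed by -0.31 and -0.32. SDHA, the catalytic subunit of complex II, changed by 0.013 and -0.64. Against the other controls the SK-N-BE(2) changes of UQCRC1 and SDHA were -0.064, not called, and -0.22, called, and their differences were 0.3 and 0.29.

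**Figure D4:**
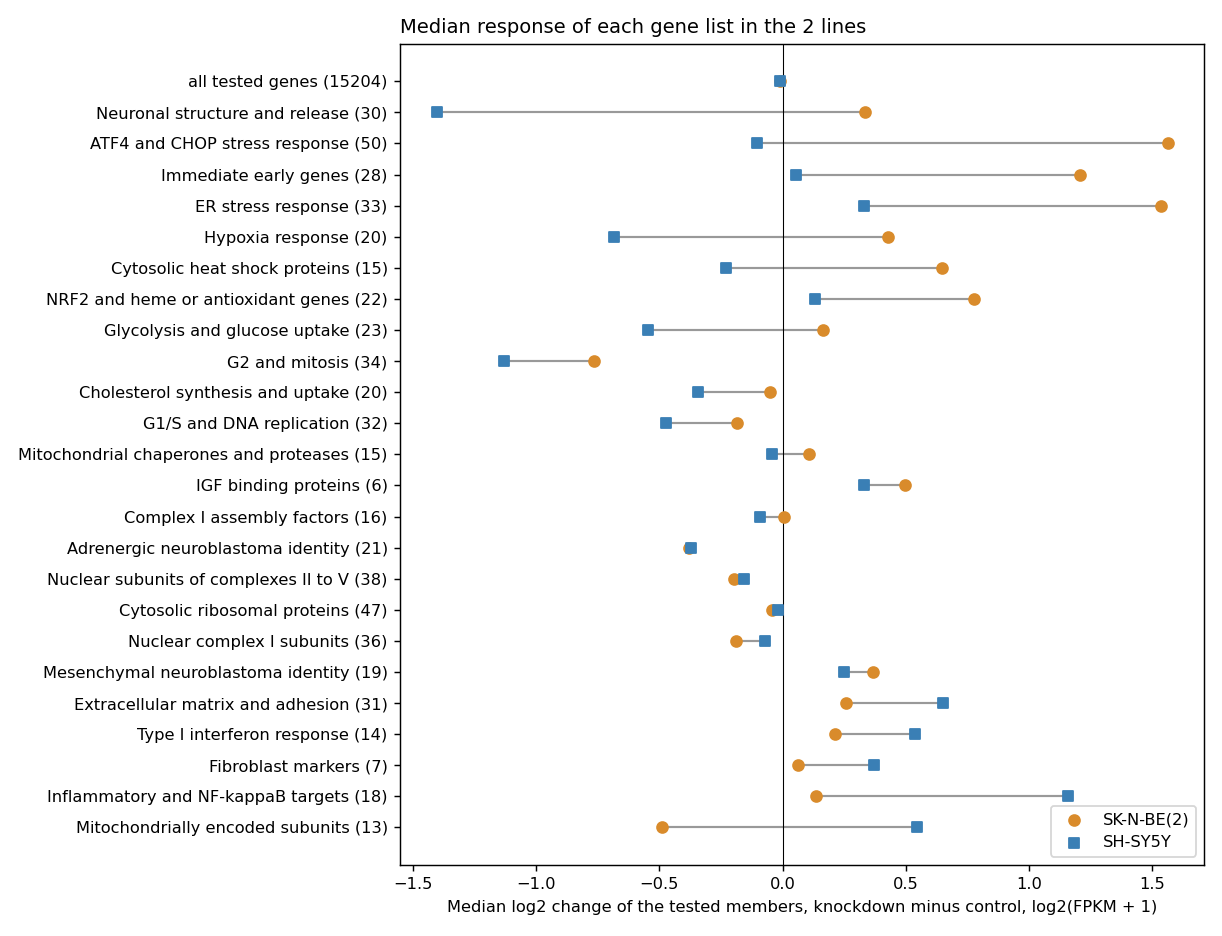
Median log2 change of the tested members of each gene list with at least 6 of them (number in brackets) in SK-N-BE(2) (circles) and SH-SY5Y (squares), on the log2(FPKM + 1) scale, with all tested genes first and the lists ordered by the median difference between the lines. Stress, hypoxia and neuronal lists lie further right in SK-N-BE(2), NF-kappaB targets and mitochondrially encoded subunits further right in SH-SY5Y, and mitosis genes left of 0 in both; all tested genes have medians near 0.

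Glycolysis and hypoxia genes mostly fell in SH-SY5Y and rose more often than they fell in SK-N-BE(2). Of 23 genes of glycolysis and glucose uptake, 19 fell and 2 rose in SH-SY5Y, with a median of -0.54 (-0.38 with the other controls), while 11 rose and 7 fell in SK-N-BE(2), with a median of 0.16, and 17 differences were higher and 1 lower. SLC2A1, the glucose transporter GLUT1, is uncertain because of shared exon sequence. SLC2A1 stood at 8.63, 8.43 and 9.31 FPKM in the SK-N-BE(2) controls and at 19, 19.5 and 20.1 in the knockdown libraries, and in SH-SY5Y at 10.3, 9.31 and 10.1 (controls) and 3.74, 3.77 and 3.65 (knockdown). All groups stood apart from their controls, and the difference was 2.28 (SE 0.0704, limma adjusted p = 2.29e-10). Hexokinase HK2 changed by 0.33 and -1.75, and LDHA, the lactate dehydrogenase subunit, fell in both, with changes of -0.43 and -1.04. LDHA was also far lower in SK-N-BE(2) than in SH-SY5Y, with 5.86, 5.69 and 5.66 FPKM in its controls against 105, 104 and 109. Of 20 hypoxia genes, 16 rose in SK-N-BE(2) and 15 fell in SH-SY5Y, 11 of them in opposite ways, with medians of 0.43 and -0.68. PDK1, which restrains pyruvate entry into mitochondria, changed by 0.49 and -1.31 and the growth factor VEGFA by 1.41 and -0.43. The hydroxylase EGLN3 rose in both, by 1.5 and 0.76. With the other controls the hypoxia medians were 0.48 and -0.034, VEGFA rose in SH-SY5Y (0.25), LDHA was not called in SK-N-BE(2) (-0.14), and the EGLN3 difference turned from 0.75 to -0.94. Of 20 cholesterol synthesis and uptake genes, 16 fell in SH-SY5Y, against 7 falls and 5 rises in SK-N-BE(2), with a median difference of 0.32. The SK-N-BE(2) counts were near the shares of all tested genes (30% lower and 28.8% higher). The cholesterol medians with the other controls were 0.019 in SK-N-BE(2) and -0.21 in SH-SY5Y, in place of -0.051 and -0.34.

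The growth regulators moved as follows. MYCN fell in SK-N-BE(2), from 1100.5, 1104 and 1101 FPKM to 431, 608 and 528. In SH-SY5Y it stood at 2.26, 2.04 and 1.7 and 1.15, 1.84 and 0.868 FPKM, and those groups overlapped. The difference of -0.68 (SE 0.209, limma adjusted p = 0.0157) was not called with no filter on low values, with a pseudocount of 0.1, or against the other controls, where it was -0.043. MYC was listed at 0 in all SK-N-BE(2) controls and at 1.04, 0.923 and 0.853 FPKM in the knockdown, while in SH-SY5Y it stood at 8.93, 8.48 and 8.19 and 6.94, 7 and 5.55. The cell cycle inhibitor CDKN1A rose in both lines. CDKN1A stood at 1.36, 1.16 and 0.561 FPKM in the SK-N-BE(2) controls and at 16.5, 12.2 and 11.7 in the knockdown libraries, and in SH-SY5Y at 51, 47 and 45.5 (controls) and 69.9, 70.4 and 86.5 (knockdown). The difference was 2.2 (SE 0.223, limma adjusted p = 6.8e-06), but against the other controls CDKN1A changed by 2.38 and 2.33 and the difference of 0.044 was not called. The 47 cytosolic ribosomal protein genes had medians of -0.043 and -0.019, whose signs turned under other scalings (0.060 in SK-N-BE(2) with a fixed sum and 0.0039 in SH-SY5Y with median-of-ratios size factors).

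The choice of empty vector control thus bore on many of these answers. With the other controls 1704 genes were called in SK-N-BE(2) alone and 3085 in SH-SY5Y alone, each with a called difference, in place of 2458 and 2475. A difference between the lines was then called for 8274 genes. Of the 8891 genes called before, 5970 were called the same way and 320 the opposite way. Large differences held better: of the 1755 of at least 2-fold, 1558 (88.8%) were called the same way and 30 the opposite way. Shared answers held for 1760 of 3361 genes and turned to opposite for 145, and opposite answers held for 1009 of 2278 and turned to shared for 158. There were 22 genes with a rise of at least 2-fold in SK-N-BE(2) and such a fall in SH-SY5Y. Of these, 18 were still called in those directions, 7 of them at least 2-fold in both lines. Of the 14 with the reverse pattern, 10 were still called in their directions, 8 of them at least 2-fold in both lines. Of the 168 rises of at least 2-fold in SK-N-BE(2) alone, 139 were still called in SK-N-BE(2) with a called difference the same way, as were 32 of its 64 falls, 132 of the 138 rises of SH-SY5Y and 211 of its 228 falls. The SH-SY5Y falls of STC2, VGF and HK2 were still called but shrank to -0.77, -0.68 and -0.9, and the SK-N-BE(2) rise of NEFH to 0.33. Since the knockdown libraries are the same in both versions, these are not independent repeats.

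**Figure D5:**
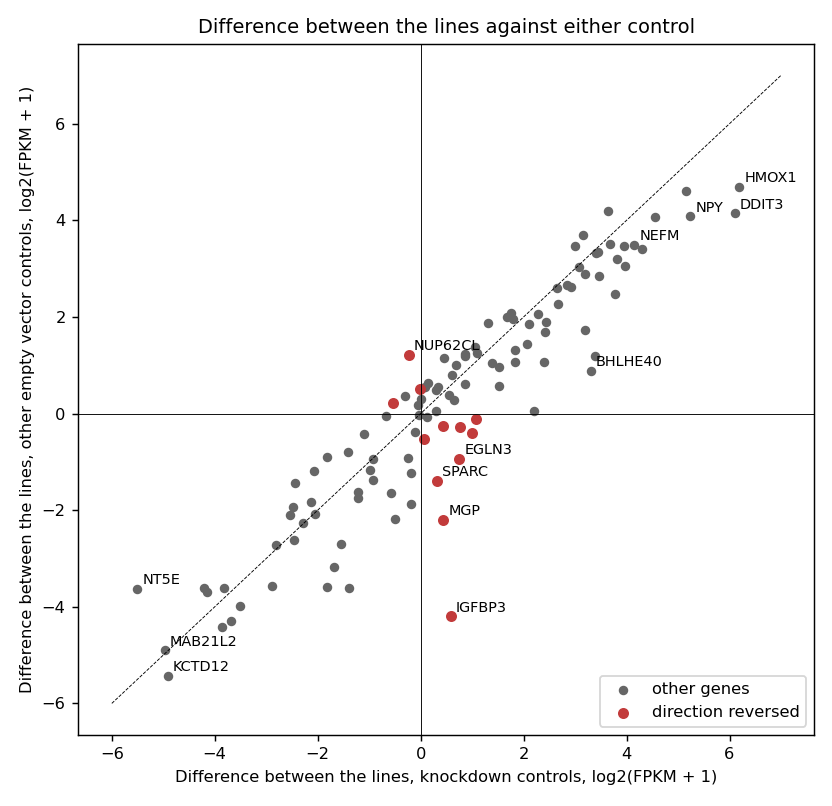
Difference between the lines for each named gene with the knockdown vector controls (x axis) and with the other empty vector controls (y axis), both on the log2(FPKM + 1) scale; the dashed line marks equality, and red points are genes with a called difference in at least 1 version whose sign turned. HMOX1, NPY, NEFM, NT5E, MAB21L2 and KCTD12 keep their sides, and IGFBP3, MGP, SPARC and EGLN3 turn.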

How the data were processed

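RNA of the 24 libraries was sequenced as strand-specific TruSeq libraries on an Illumina NovaSeq, per the labels' protocols. The deposited file holds FPKM per gene, made by the authors. FastQC 0.11.2, STAR and StringTie 1.3.1c and the hg38 build are named in the submitters' processing notes, with counting settings and annotation release not given in the sources used here. FPKM keeps no depth, so no counting interval is given, and all genes share 1 total per library. Groups came from the labels. Genes at 1 FPKM or more in at least 3 of the 12 libraries were tested on log2(FPKM + 1), with a pseudocount of 1, in 1 limma model (limma 3.58.1, with trend and robust moderation, in R 4.3.3) of 4 groups with 8 residual degrees of freedom. Tests were two-sided, with Benjamini-Hochberg adjustment over all tested genes and a threshold of 0.05. NDUFS6 was left out of counts. The model was tested on simulated data over 15205 genes, with only 50 of them changed at each size of difference. There 90% of 1.5-fold and 100% of 2-fold differences between the lines were recovered, with 5 false calls. Recovery and false calls where a majority of genes is called, as in these libraries, were not tested.

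The members, gene lists and comparison were chosen with earlier results of these data known, so a list is described by its counts and median and has no test of its own. Of 652 list entries, 622 were found by symbol and 30 by identifier, and 597 were tested. Named genes were NDUFS6, the 10 most positive and 10 most negative differences, the 8 leading shared rises and falls, the 8 leading opposite genes of each direction (these at a mean of at least 5 FPKM in 1 group or more), up to 4 members per list with the smallest adjusted p of the difference and up to 3 shared members, MYCN, MYC, CDKN1A, ATF4, DDIT3, XBP1 and the highest marker of each other cell type. Some were left unnamed, and some genes and 1 list are not reported here. Gene positions came from GENCODE 29, which held 15105 of the 15204 tested genes, and promoters from RefSeq. Alternatives covered the pseudocount, filters, scaling, controls, moderation, the replicate block and single libraries.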

Additional observations from a re-analysis of the deposited data

Results flagged for a closer look

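The change with knockdown differed between the lines for 8891 genes by limma's test of the difference itself. It did so for 102 of the 115 genes whose changes are described above, each given as the SK-N-BE(2) change minus the SH-SY5Y change on the log2(FPKM + 1) scale. Among stress genes the differences were HMOX1 6.18, DDIT3 6.1, ATF3 5.16, CHAC1 4.29, ATF4 0.87, PPP1R15A 1.82, DDIT4 3.38, STC2 3.96 and SLC7A5 2.67. For further such genes they were SLC38A2 -0.25, HSPA5 3.44, HERPUD1 3.67, DNAJB9 2.64, CALR 1.38, XBP1 2.1, EIF2AK3 0.54, GCLM 2.41 and TXNRD1 1.52. For the others they were SQSTM1 0.99, FOS 3.41, JUN 2.93, FOSL1 3.77, DUSP10 1.08, HSPA1A 3.08, HSPA1B 2.85, DNAJB1 1.75 and HSP90AA1 0.87. Among neuronal and adrenergic genes they were NPY 5.24, NEFM 4.15, NEFL 3.16, NEFH 2.44, ELAVL3 3.46, ELAVL4 0.29, STMN2 -0.54, STMN4 3.65 and DPYSL3 -0.18. For further such genes they were VGF 3.18, CHGB 3.01, ISL1 -2.06, TBX2 -1.54, RET 2.4 and DBH 1.51. Among matrix, surface and secreted genes they were NT5E -5.5, GJA1 -3.87, MMP14 -3.69, SLITRK6 -4.2, VCAN -2.9, TRIL -2.81, DKK2 -3.82, DCN -3.5 and MXRA8 -2.45. For further such genes they were GPC3 -2.53, COL4A1 -2.47, THBS1 3.19, SPARC 0.31, IGFBP3 0.58, IGFBP5 -1.4, MGP 0.44, RELN -0.5 and PDGFRB -0.93. For genes of other kinds they were KCTD12 -4.91, MAB21L2 -4.97, AC114284.1 -4.15, VIM -1.83, YAP1 -2.46, SNAI2 0.44, ID1 0.77, EEF1A2 3.94 and BEND4 4.54. For the remaining ones they were ARHGAP36 3.82 and BHLHE40 3.3. Among inflammatory genes they were NFKBIA -2.05, CCL2 -2.12, TRAF1 -2.28, TNFAIP3 -1.22, CXCL8 -0.58, IFIT3 -0.99, IFI44 -1.21 and CD68 -1.69. Among genes of the respiratory chain and metabolism they were NDUFS6 -1.05, NDUFS5 -0.93, MT-CYB -1.82, MT-ND2 -1.11, SDHA 0.65, SLC2A1 2.28, HK2 2.08, LDHA 0.61 and PDK1 1.8. For further such genes they were VEGFA 1.84 and EGLN3 0.75. Among genes of growth and division they were MYCN -0.68, MYC 1.3, CDKN1A 2.2, CDC6 1.67, CDC45 0.86, RRM1 0.34, CCND1 -1.41, TPX2 0.68 and NEK2 1.05. For further such genes they were HMMR 1.1, TOP2A 0.45 and FAM72D 0.29. With such a share of all genes called, these calls do not set the named genes apart. CHAC1 and IFIT3 passed the filter only through the knockdown group in which each was high.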

How the results depend on the processing

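The 13 main counts and the NDUFS6 difference held their size within 1.5 times with no filter on low values, median-of-ratios size factors, scaling to genes outside mitochondrial DNA, all 24 libraries in 1 model, the other empty vector controls, no moderation by trend or outliers, and with any 1 library left out. With a pseudocount of 0.1, 2885 genes differed at least 2-fold between the lines, and 303 shared and 191 opposite answers were 2-fold in both lines. Over the 7240 genes with a mean of at least 5 FPKM, fewer genes were tested: 5045 were called in SK-N-BE(2) and 4763 in SH-SY5Y, 2502 differences were higher, 2246 lower and 718 at least 2-fold. That left 1018 shared rises, 1106 shared falls, 664 and 658 opposite answers (up and down in SK-N-BE(2)), 1277 genes of SK-N-BE(2) alone and 1039 of SH-SY5Y alone. Scaling to a fixed sum gave 2804 lower differences, 1877 opposite answers up in SK-N-BE(2) and 599 down. With that scaling the called difference of DPYSL3 turned (0.012), as did the median differences of cytosolic ribosomal (0.17), mesenchymal (0.015), nuclear complex I (0.11) and Schwann cell genes (0.0037), and with a pseudocount of 0.1 that of CXCL8 (0.78). Among named genes with a called difference in at least 1 version, the signs that turned with the other controls were those of CENPA (0.52), DUSP10 (-0.12), EGLN3 (-0.94), ID1 (-0.28), IGFBP3 (-4.2), MGP (-2.2), NUP62CL (1.21), PHOX2A (-0.52), SNAI2 (-0.27), SPARC (-1.4), SQSTM1 (-0.4) and STMN2 (0.22). Those of MKI67 (0.35), NDUFB4 (-0.068) and NDUFA2 (0.17) turned without a call in either version. The medians of adrenergic (-0.075), epithelial (-0.21) and IGF binding protein genes (-0.59) turned too. The cause of these turns was not tested.

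Leaving out 1 library at a time gave 8140 to 9015 calls in SK-N-BE(2), 8109 to 9305 in SH-SY5Y, 4414 to 4715 higher, 3924 to 4390 lower and 1718 to 1804 2-fold differences, and an NDUFS6 difference of -1.19 to -0.92. Same-numbered knockdown and control libraries did not deviate together (correlations of -0.017, -0.0049 and -0.030 in SK-N-BE(2) and of -0.00049, 0.012 and -0.0032 in SH-SY5Y). Deviations from means of only 3 libraries cannot exclude that samples were paired by number. With the replicate block 8562 differences were called, and no main count moved by over 1.5 times. Depth is unknown for these values, so counting error could not be set apart from other spread at low FPKM.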
